A study of Mus musculus with 13 samples.

Results

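The genes described here are *Vdr*, *Rara*, *Rarg*, *Rxra*, *Nr3c1*, *Pparg* and *Nr1h2*, which encode nuclear receptors switched on by small lipid-soluble ligands, and *Ahr*, which encodes a ligand-activated transcription factor of another family. They were taken by gene symbol from both count tables, as 8 of 24417 named genes, and all 8 passed the filter on low counts in both experiments. RNA was sequenced from sorted CD4 T cells of mice with a reversible *Foxp3* reporter-null allele, *Foxp3*LSL, in which Thy1.1 and a STOP cassette stand before *Foxp3*, so that cells committed to the regulatory T (Treg) lineage lack Foxp3 and are called Treg “wannabes”. The male experiment holds 3 control Treg libraries (Foxp3DTR-GFP/yCd4creERT2), 3 rescued Treg libraries (Foxp3LSL/yCd4creERT2) and 2 “wannabe” libraries (Foxp3LSL/yCd4wt). All male mice, controls included, were given the tamoxifen metabolite 4-OHT at an age of 14 days and sampled at 21 days. In the rescued cells the drug let a Cre-ERT2 fusion, expressed from *Cd4*, cut out the STOP cassette, so that rescued Treg cells express Foxp3 from the repaired allele. The female experiment holds 3 resting (Foxp3LSL/WTCd4wt) and 2 activated (Foxp3LSL/DTRCd4wt) “wannabe” libraries. All of these mice carry the age label 9 to 11 weeks and were given diphtheria toxin, which removes Treg cells that express the *Foxp3*DTR allele and leaves those with the wild-type allele.

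All mice were C57BL/6, and cells of pooled spleen and lymph nodes were sorted by fluorescence, Treg cells as Foxp3-positive and Thy1.1-negative and “wannabes” as the reverse. Cre-ERT2 acts in all cells that use *Cd4*, thymocytes included, and control and rescued Treg cells differ in their *Foxp3* allele as well as in their history. The paper describes *Foxp3*LSL males as having marked autoimmune disease when treated, the *Foxp3*DTR-GFP controls as healthy, and the mice of the activated “wannabes” as sick. Inflammation and genotype therefore cannot be told apart between rescued and control Treg, control Treg and male “wannabes”, or activated and resting “wannabes”. The experiments differ in sex, age and treatment and were normalized separately, so differences in level were tested only within each. *Foxp3* itself, given as normalized counts (counts scaled to the mean effective library size of the experiment), was 5479, 7061 and 8264 in control Treg, 2762 and 3273 in male “wannabes”, and 28381, 29816 and 36405 in rescued Treg libraries. It was 1999 to 2230 in resting and 1568 to 1728 in activated “wannabes”, so that *Foxp3* was lowest in “wannabes” within the male libraries and highest in rescued Treg. The design text of the series gives the female libraries as 2 resting and 3 activated, and the labels of the single libraries, which give 3 and 2, were followed. Total counts lay between 25556783 and 36659638. The 6 markers of the sorted T cells summed to between 4214 and 6760 CPM (counts scaled to a common library total) in the 13 libraries. Of these, Cd4 was at 389.9 to 436.6 CPM in control and 443.6 to 512.2 CPM in rescued Treg, against 967.1 to 1371 CPM in male “wannabes”. Both Treg populations carry Cd4creERT2 and the male “wannabes” Cd4wt. In comparisons between them the *Cd4* allele and Cre activity cannot be told apart from the other differences.

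Nuclear receptors sit on DNA or move to it when a hormone, vitamin metabolite, fatty acid or sterol binds them, and then recruit coregulators that turn nearby genes up or down. The vitamin D receptor, the retinoic acid receptors, PPARγ and LXRβ work as pairs with a retinoid X receptor such as RXRα, whereas the glucocorticoid receptor binds mostly as a pair with itself and the aryl hydrocarbon receptor pairs with ARNT. In T cells, retinoic acid, vitamin D, glucocorticoids, PPARγ ligands and dietary or microbial AhR ligands are all known to influence how Treg cells form and where they live.

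On GRCm38 with GENCODE M21 the genes other than *Nr3c1* are placed as follows: *Vdr* on chr15:97854425-97910630 and *Rarg* on chr15:102234938-102257517 (both minus strand), *Rxra* on chr2:27676440-27762957, *Rara* on chr11:98927818-98974942 and *Pparg* on chr6:115360951-115490399 (plus strand), *Nr1h2* on chr7:44549616-44553951 and *Ahr* on chr12:35497974-35535038 (minus strand). *Ahr* shares 127 exonic bases with Gm48236, a lincRNA on the other strand, and no other member shares exonic bases with another gene. The strand setting of the counting is not given in the sources used here, so reads from those 127 bases cannot be assigned to either gene.

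RefSeq promoter windows (GRCm38.p6, from 250 bases before to 50 after an annotated start) were given for 6 of the 8 genes, 13 windows in all. They were searched on both strands for AGGTCA, the hexamer that receptors paired with RXR recognize, and for GCGTG, the core bound by AhR with ARNT. AGGTCA was in 5 of the 13 windows and in 16.3% of all 32851 windows of this length, and GCGTG was in 5 of the 13 and in 32.4% of all windows. The windows of *Vdr* and *Rxra* are shown because these genes differed together in the male comparisons, and that of *Pparg* because it had the largest log2 difference among the 8 genes in the female comparison. Of the 2 *Rxra* and 3 *Pparg* windows the one with the most matches is shown, and the first *Rxra* and the third *Pparg* window hold neither motif. Capitals mark the letters of either motif, read 5′ to 3′ on the gene's strand (TGACCT and CACGC are the same motifs on the opposite strand).
Vdr, chr15:97908247-97908546, minus strand: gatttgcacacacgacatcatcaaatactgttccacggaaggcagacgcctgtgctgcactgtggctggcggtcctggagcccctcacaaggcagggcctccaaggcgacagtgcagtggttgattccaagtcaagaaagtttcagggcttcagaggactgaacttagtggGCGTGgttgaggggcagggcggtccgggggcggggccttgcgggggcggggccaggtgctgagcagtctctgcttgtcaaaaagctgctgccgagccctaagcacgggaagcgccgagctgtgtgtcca
Rxra, second window, chr2:27709042-27709341, plus strand: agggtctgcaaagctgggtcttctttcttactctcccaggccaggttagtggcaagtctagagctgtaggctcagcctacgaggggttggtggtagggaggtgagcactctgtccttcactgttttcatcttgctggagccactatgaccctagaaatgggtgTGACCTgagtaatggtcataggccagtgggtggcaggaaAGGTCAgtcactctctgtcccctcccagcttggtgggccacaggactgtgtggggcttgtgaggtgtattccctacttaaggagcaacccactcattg
Pparg, first window, chr6:115360894-115361193, plus strand: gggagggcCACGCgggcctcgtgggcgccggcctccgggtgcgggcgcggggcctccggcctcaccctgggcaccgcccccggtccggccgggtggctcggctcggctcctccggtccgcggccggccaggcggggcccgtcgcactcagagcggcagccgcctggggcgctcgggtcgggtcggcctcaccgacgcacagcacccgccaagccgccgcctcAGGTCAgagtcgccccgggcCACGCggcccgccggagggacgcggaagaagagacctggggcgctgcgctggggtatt
The *Vdr* window holds 1 GCGTG and no AGGTCA, the *Rxra* window 2 AGGTCA and no GCGTG, and the *Pparg* window 1 AGGTCA and 2 GCGTG. A match describes the letters only and says nothing of binding in these cells.

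**Figure D1:**
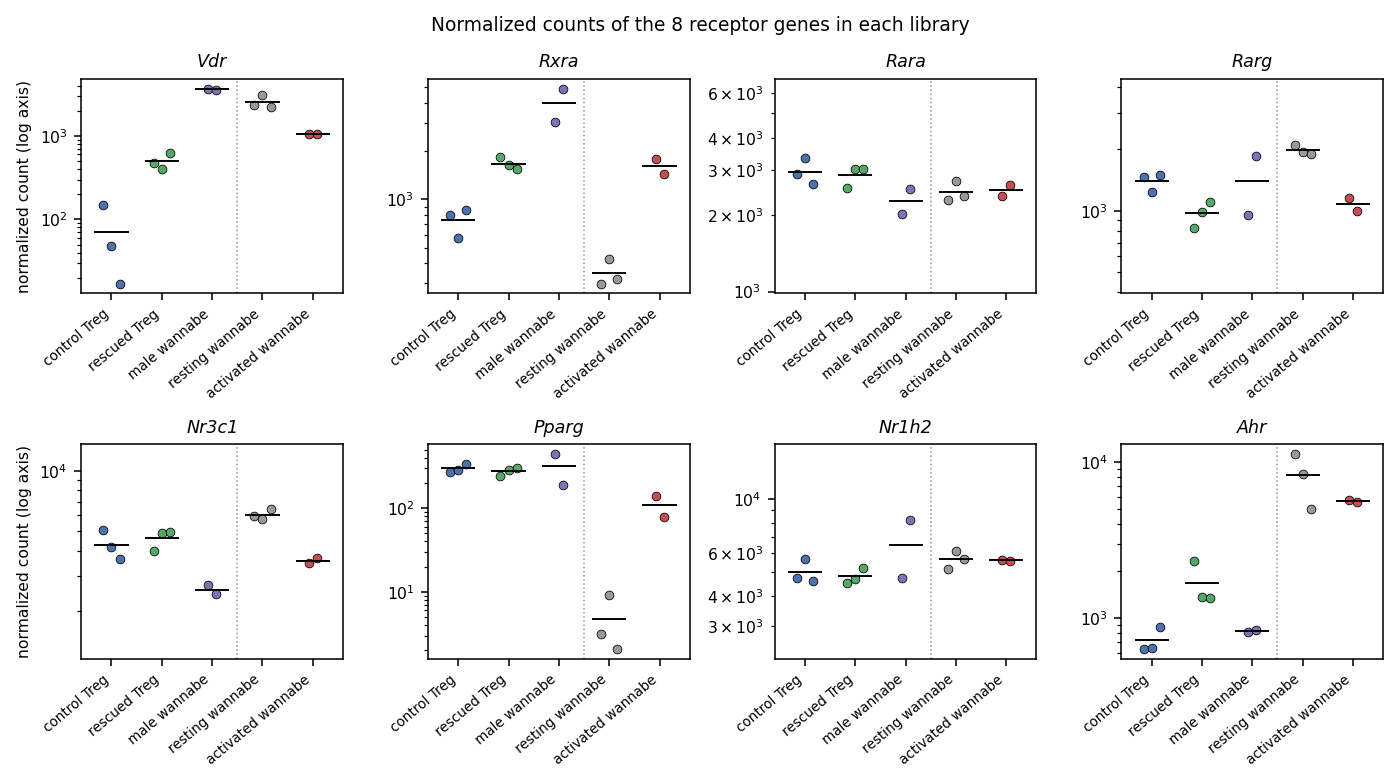
Normalized counts of the 8 genes in each of the 13 libraries. Each panel has its own log axis, points are libraries, horizontal lines are group means, and the dotted line separates the male from the female libraries, which were normalized separately. *Vdr* lies between 17.0 and 149 in control Treg, between 402 and 623 in rescued Treg and between 3548 and 3680 in male “wannabe” libraries.

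*Vdr*, the receptor for active vitamin D, spanned the widest range of the 8 genes in the male libraries. Its normalized counts were 149, 48.3 and 17.0 in control Treg, 470, 402 and 623 in rescued Treg, and 3680 and 3548 in male “wannabe” libraries. The 3 populations did not overlap, with rescued Treg libraries above every control and below every “wannabe” library. The 3 controls differed the most among themselves, the highest coming from replicate 1 and the lowest from replicate 3. *Vdr* was 7.03-fold higher in rescued than in control Treg cells (log2 2.81 ± 0.56 SE, adjusted p = 0.0271 by edgeR's quasi-likelihood test). Against “wannabes” the log2 difference was -2.86 ± 0.58 for rescued (adjusted p = 0.00715) and -5.67 ± 0.65 for control Treg (adjusted p = 0.000536, edgeR). In the female libraries *Vdr* was 2326, 3125 and 2201 in resting and 1063 and 1040 in activated “wannabes”. All activated libraries were below all resting ones, with a log2 difference of -1.28 ± 0.17 (adjusted p = 0.00381, edgeR). The call between rescued and control Treg was lost without control replicate 2 (log2 2.60, adjusted p = 0.119, edgeR), without rescued replicate 1 (log2 2.86, adjusted p = 0.0702) and without rescued replicate 3 (log2 2.62, adjusted p = 0.0740). Without control replicate 1 the log2 difference was 3.92 (adjusted p = 0.00693, edgeR). Without that library the log2 difference between control Treg and “wannabes” was -6.78 (adjusted p = 0.000673, edgeR). The other *Vdr* calls were kept whichever library was left out.

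*Rxra* encodes RXRα, the partner that *Vdr* and the retinoid, PPAR and LXR receptors share. Normalized counts were 802, 572 and 863 in control Treg, 1834, 1638 and 1540 in rescued Treg, and 3053 and 4918 in male “wannabe” libraries. As for *Vdr*, the rescued libraries lay above every control and below every “wannabe” library. *Rxra* was 2.24-fold higher in rescued than in control Treg cells (log2 1.16 ± 0.23 SE, adjusted p = 0.0270, edgeR). Relative to “wannabes” it was lower, at log2 -1.25 ± 0.25 in rescued (adjusted p = 0.00709) and -2.42 ± 0.26 in control Treg (adjusted p = 0.000406, edgeR). Among the females it was 298, 427 and 317 in resting and 1790 and 1434 in activated “wannabes”. The activated libraries were above all resting ones, 4.64-fold higher (log2 2.21 ± 0.19, adjusted p = 0.000871, edgeR), so that *Vdr* and *Rxra*, which lay in the same order in the male libraries, moved in opposite directions in the female ones. The call between rescued and control Treg was lost when any 1 of those 6 libraries was left out (adjusted p from 0.0531 without rescued replicate 3 to 0.111 without control replicate 2, log2 difference from 1.00 to 1.28, edgeR). Against male “wannabes”, the call for rescued Treg was lost without “wannabe” replicate 2, the higher library (log2 -0.91, adjusted p = 0.0571, edgeR).

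*Rara* and *Rarg* encode retinoic acid receptors α and γ. *Rara* had normalized counts of 2891, 3322 and 2630 in control Treg, 2553, 3029 and 3034 in rescued Treg, 2016 and 2517 in male “wannabe”, 2288, 2717 and 2357 in resting, and 2372 and 2612 in activated libraries. No comparison of *Rara* passed the test: the log2 difference was -0.04 ± 0.17 SE between rescued and control Treg (adjusted p = 0.954) and 0.02 ± 0.11 between activated and resting “wannabes” (adjusted p = 0.900, edgeR). Both Treg populations lay above both male “wannabe” libraries, by 0.34 ± 0.20 for rescued and 0.38 ± 0.20 for control Treg on the log2 scale (adjusted p = 0.283 and 0.213, edgeR).

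*Rarg* had normalized counts of 1459, 1232 and 1490 in control Treg, 828, 990 and 1101 in rescued Treg, and 955 and 1842 in male “wannabe” libraries. The rescued libraries were below all controls, but the log2 difference of -0.52 ± 0.26 SE did not pass (adjusted p = 0.360, edgeR). Of the male “wannabe” libraries 1 lay within the range of the rescued ones and 1 above all controls, and without “wannabe” replicate 1 the difference between rescued Treg and “wannabes” was called (log2 -0.92, adjusted p = 0.0447, edgeR). Female *Rarg* counts were 2103, 1944 and 1893 in resting and 1155 and 1003 in activated “wannabes”. It was lower in activated cells (log2 -0.88 ± 0.11, adjusted p = 0.00303, edgeR), a call kept whichever library was left out.

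*Nr3c1*, at chr18:39410545-39519421 on the minus strand, encodes the glucocorticoid receptor. It had normalized counts of 5050, 4163 and 3638 in control Treg, 4004, 4904 and 4979 in rescued Treg, and 2692 and 2430 in male “wannabe” libraries. Control and rescued libraries overlapped (log2 difference 0.11 ± 0.17 SE, adjusted p = 0.837, edgeR), and both populations lay wholly above the “wannabes”. The log2 difference from “wannabes” was 0.85 ± 0.20 for rescued (adjusted p = 0.0141) and 0.74 ± 0.20 for control Treg (adjusted p = 0.0253, edgeR). Female *Nr3c1* counts were 5963, 5747 and 6468 in resting and 3465 and 3688 in activated “wannabes”. The log2 difference was -0.76 ± 0.09 (adjusted p = 0.00216, edgeR), a call kept whichever library was left out. The rescued call was lost without “wannabe” replicate 2 (log2 0.74, adjusted p = 0.0776), and the control call was lost without that library (log2 0.62, adjusted p = 0.118), without control replicate 1 (log2 0.61, adjusted p = 0.0884) and without control replicate 2 (log2 0.76, adjusted p = 0.0588, edgeR). It was lost as well in a fit of control Treg and “wannabes” alone (log2 0.71, adjusted p = 0.0515, edgeR).

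*Pparg* encodes PPARγ, a fatty acid sensor known from fat cells, macrophages and tissue Treg cells. Male *Pparg* counts, normalized, were 267, 287 and 338 in control Treg, 243, 286 and 298 in rescued Treg, and 442 and 186 in male “wannabe” libraries. The male populations overlapped, with a log2 difference of -0.11 ± 0.36 SE between rescued and control Treg (adjusted p = 0.936, edgeR). In the resting female libraries only 3, 9 and 2 reads were counted, against 148 and 82 in the activated ones. Summed over libraries and scaled by library size, the level was 22.6-fold higher in activated “wannabes”, with an exact 95% interval of 13.2 to 42 that covers counting error only. The fitted log2 difference was 4.46 ± 0.61 (adjusted p = 0.00427, edgeR). The call was lost without activated replicate 1 (log2 3.99, adjusted p = 0.0569), and without resting replicate 2, the library with 9 reads, the log2 difference was 5.32 (adjusted p = 0.00469, edgeR).

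The summed level of 10 macrophage and monocyte markers was 1.949 to 5.776 CPM in resting and 8.041 to 11.78 CPM in activated libraries, and that of 7 B cell markers was 10.47 to 13.36 and 23.29 to 25.82 CPM. Of the B cell markers 3 were tested and 1 passed, Cd79b, which was higher in activated cells (7.526 to 8.79 against 20.29 to 21.91 CPM, log2 1.34, adjusted p = 0.00193, edgeR). Of the macrophage markers, 7 were tested, all 7 were higher in activated cells, none passed the test, and Cd14 was at 0 in both activated libraries. The 6 dendritic cell markers summed to 3.296 to 4.395 CPM in resting and 6.75 to 8.041 CPM in activated libraries, with Clec9a at 0 in all 5, and the 2 CD8 T cell markers to 9.718 to 13.9 and 14.25 to 15.92 CPM. The 4 NK cell markers summed to 5.493 to 9.168 and 8.47 to 12 CPM, and the 3 tested were all higher in activated cells without passing. Plasma cell markers went the other way, with Sdc1 at 4.166 to 7.76 CPM in resting and 0.3859 to 0.4458 CPM in activated libraries (log2 -3.87, adjusted p = 0.00167, edgeR). The sum of the 4 plasma cell markers was 297 to 335 and 236.5 to 245.6 CPM, of which Xbp1 made up 273 to 325.8 and 235.8 to 244.6, and the 5 mast cell and basophil markers summed to 2.162 to 3.745 and 1.274 to 1.576 CPM. Granulocyte markers summed to 0.1418 to 1.33 and 0.09552 to 0.5468 CPM and erythroid markers to 0.9923 to 18.34 and 1.801 to 1.91 CPM, each overlapping. The part of all these markers in the *Pparg* difference was not tested. In the male libraries, in which *Pparg* was between 186 and 442, the macrophage and monocyte markers summed to between 2.549 and 14.2 CPM.

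*Nr1h2* encodes LXRβ, a receptor for oxidized sterols found in most cells. It had normalized counts of 4729, 5661 and 4630 in control Treg, 4541, 4693 and 5232 in rescued Treg, 4731 and 8182 in male “wannabe”, 5157, 6155 and 5702 in resting, and 5649 and 5558 in activated libraries. The groups overlapped within each experiment, and the highest male library was “wannabe” replicate 2. The log2 difference was -0.05 ± 0.20 SE between rescued and control Treg (adjusted p = 0.944) and -0.02 ± 0.09 between activated and resting “wannabes” (adjusted p = 0.911, edgeR). Without “wannabe” replicate 1 *Nr1h2* was called lower than “wannabes” in rescued Treg (log2 -0.77, adjusted p = 0.0227) and in control Treg (log2 -0.71, adjusted p = 0.0280, edgeR).

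*Ahr* encodes the aryl hydrocarbon receptor, which senses dioxin-like compounds and tryptophan metabolites. Its normalized counts were 632, 642 and 880 in control Treg, 818 and 835 in male “wannabe”, and 2331, 1363 and 1339 in rescued Treg libraries. The rescued libraries were above all others of the experiment, and control and “wannabe” libraries overlapped. *Ahr* was 2.34-fold higher in rescued than in control Treg cells (log2 1.22 ± 0.27 SE, adjusted p = 0.0391) and 2.03-fold higher than in “wannabes” (log2 1.02 ± 0.30, adjusted p = 0.0468, edgeR), while control Treg and “wannabes” differed by -0.20 ± 0.29 (adjusted p = 0.686). In the female libraries *Ahr* was 11280, 8371 and 4987 in resting and 5681 and 5520 in activated “wannabes”. The resting libraries spanned the activated ones, and the log2 difference of -0.55 ± 0.31 did not pass (adjusted p = 0.233, edgeR).

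The *Ahr* calls in the male libraries were kept in 2 of 8 fits each when a library was left out. Against control Treg the call was lost when any 1 of the 6 control and rescued libraries was left out, with adjusted p from 0.0521 without rescued replicate 3 to 0.173 without control replicate 1 (edgeR), and the log2 difference was 0.91 without rescued replicate 1, the highest library. Against “wannabes” it was kept only without rescued replicate 2 or 3 (adjusted p = 0.0467 and 0.0459, edgeR), and without rescued replicate 1 the log2 difference was 0.71 (adjusted p = 0.141). That call was also lost with DESeq2's size factors (adjusted p = 0.0516) and in a fit of those 2 populations alone (adjusted p = 0.0840, edgeR). Among the females, leaving out resting replicate 3, the lowest, gave a call for *Ahr* (log2 -0.81, adjusted p = 0.0179, edgeR), whereas without resting replicate 1 it was -0.24 (adjusted p = 0.496).

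**Figure D2:**
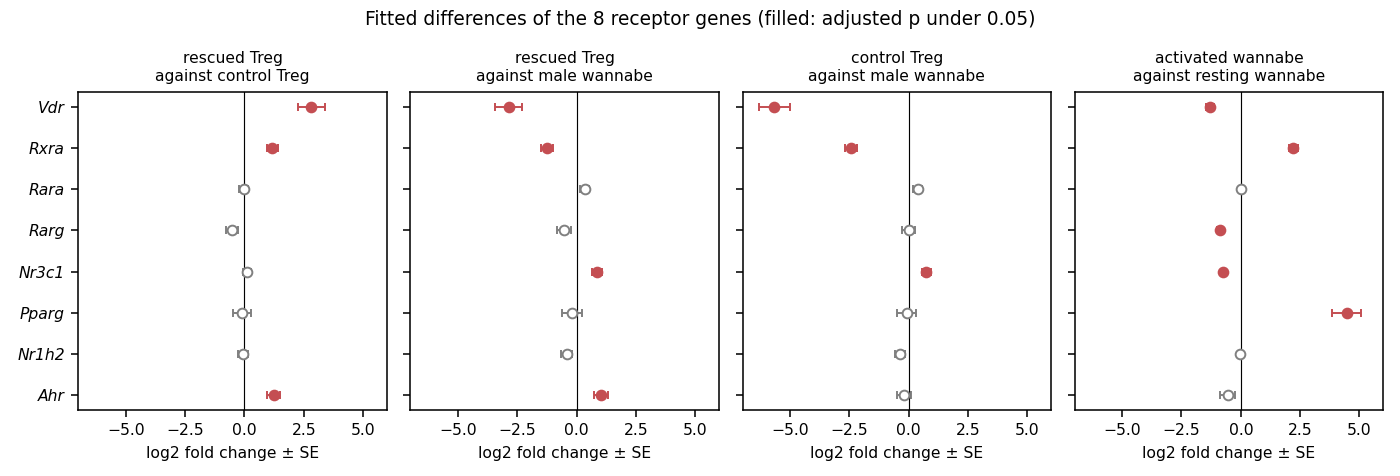
Fitted log2 differences of the 8 genes in the 4 comparisons. Points are edgeR estimates, bars are 1 SE, and filled red points passed at an adjusted p under 0.05; *Vdr* and *Rxra* lie on the same side of 0 in all 3 male comparisons and on opposite sides in the female comparison.

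Between rescued and control Treg, 3 of the 8 genes passed the test, all higher in rescued cells, where 2.3% of the 14925 genes tested passed. The libraries did not overlap for 4 of the 8 (24.2% of all genes tested), 3 above and 1 below. Marker sums of other cell types also differed between these populations: 4 NK cell markers summed to 0.6116 to 1.582 CPM in control and 3.695 to 8.81 CPM in rescued Treg (5.5 to 9.128 in male “wannabes”), and Ncr1 was at 0 in control and “wannabe” libraries. The 6 dendritic cell markers summed to 0.8916 to 1.929, 2.173 to 3.723 and 4.203 to 7.362 CPM in control, rescued and “wannabe” libraries, with Clec9a and Siglech at 0 in all of them. The 4 plasma cell markers summed to 111.9 to 131.6, 167.3 to 195.1 and 31.37 to 47.74 CPM in the same order, nearly all of it from Xbp1, a gene of the unfolded protein response that many cell types use (110.6 to 131.3, 165.8 to 195.1 and 30.99 to 47.74 CPM). The plasma cell surface marker Sdc1 was at 0.2289 to 1.529 CPM in control, 0 to 1.036 in rescued and 0 to 0.3724 in “wannabe” libraries, Tnfrsf17 was at 0 in rescued and “wannabe” and Jchain at 0 in “wannabe” libraries. None of these markers that was tested passed between rescued and control Treg, and their part in the receptor differences was not tested. Of 9 genes of handling stress 1 passed as lower in rescued than in control Treg, and its part was not tested. Against male “wannabes” Xbp1 passed as higher in both Treg populations, and in control Treg Itgam, a macrophage and monocyte marker, passed as higher and Klrb1c, an NK cell marker, and Hba-a1, an erythroid marker, as lower (adjusted p = 0.0256, 0.0263 and 0.0483, edgeR), whose part was not tested either. Between rescued Treg and male “wannabes” 4 of the 8 passed, 2 in each direction (14.1% of all genes), and 5 did not overlap (42.7%). Between control Treg and male “wannabes” 3 of the 8 passed, 1 higher and 2 lower (16.2% of all genes), and 4 did not overlap (46.1%), a share of the members close to that of all genes. Between activated and resting “wannabes” 5 of the 8 passed, 2 higher and 3 lower, where 22.5% of 13166 genes passed, and 5 did not overlap (56.5%). The male comparisons share libraries and are not independent of one another. The median log2 difference of the 8 genes was 0.04, -0.31, -0.14 and -0.29 in these 4 comparisons, beside -0.03, 0.00, 0.09 and -0.01 over all genes tested.

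The change from control to rescued Treg and that from resting to activated “wannabe” were compared in 1 fit over the 13 libraries, in which 2 of the 8 genes differed (1.53% of the 15201 genes tested). *Vdr* was higher in rescued than control Treg and lower in activated than resting “wannabes”, a difference of changes of 4.12 ± 0.73 SE on the log2 scale (adjusted p = 0.0136, edgeR). *Pparg*, which overlapped between control and rescued Treg and was higher in activated “wannabes”, had a difference of -4.56 ± 0.69 (adjusted p = 0.00628, edgeR). *Ahr* missed the threshold (1.79 ± 0.41, adjusted p = 0.0502), as did *Nr3c1* (0.89 ± 0.21, adjusted p = 0.0569) and *Rxra* (-1.04 ± 0.33, adjusted p = 0.165, edgeR), the gene that was higher both in rescued Treg and in activated “wannabes”. With DESeq2 these 3 were called as well (adjusted p = 0.00126 for *Ahr*, 0.00645 for *Nr3c1* and 0.0448 for *Rxra*). *Ahr* was called under all 4 alternatives that kept every library (adjusted p up to 0.0496, with DESeq2's size factors in edgeR), and in 3 of the 13 fits without a library. The *Vdr* call was lost without activated replicate 1 or 2 (adjusted p = 0.0961 and 0.0991, edgeR) and kept without each of the other 11 libraries, and the *Pparg* call was kept without each of the 13. Without control replicate 1 the *Vdr* difference was 5.22 (adjusted p = 0.00108), and without resting replicate 2 that of *Pparg* was -5.42 (adjusted p = 0.00449, edgeR). Sex, age, drug and cell history cannot be told apart between the experiments.

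**Figure D3:**
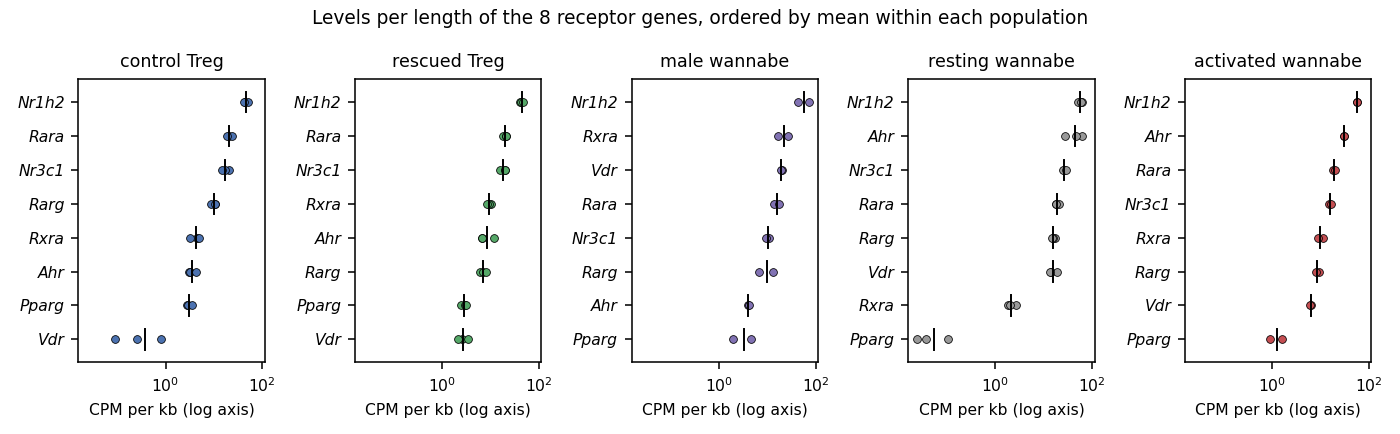
Levels per length in the 5 populations. Points are libraries, vertical bars are means, the horizontal log axis is CPM per kilobase of exon, and genes are ordered by their mean within each population; *Nr1h2* is at the top in all 5 and *Vdr* moves from the bottom in control Treg to the third place in male “wannabes”.

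Per length (CPM divided by the kilobases of exon of the gene), *Nr1h2* had the highest mean in all 5 populations, from 43.8 ± 3.30 (SD, n = 3) in rescued Treg to 58.7 ± 22.2 (n = 2) in male “wannabes”. In control Treg the order below it was *Rara* (20.6 ± 2.44), *Nr3c1* (17.0 ± 2.83), *Rarg* (9.97 ± 1.01), *Rxra* (4.16 ± 0.86), *Ahr* (3.55 ± 0.70), *Pparg* (3.07 ± 0.38) and *Vdr* (0.39 ± 0.37). In that order the levels of *Rara* and *Nr3c1*, of *Rxra* and *Ahr*, and of *Ahr* and *Pparg* overlapped between libraries. Rescued Treg cells had the same first 3 genes, followed by *Rxra* (9.32 ± 0.84), *Ahr* (8.30 ± 2.80), *Rarg* (6.96 ± 0.98), *Pparg* (2.84 ± 0.30) and *Vdr* (2.69 ± 0.61), and neighbours among the last 5 overlapped apart from *Rarg* and *Pparg*. In male “wannabes” *Rxra* (22.2 ± 7.36) and *Vdr* (19.5 ± 0.50) came next after *Nr1h2*, and *Ahr* (4.09 ± 0.06) and *Pparg* (3.24 ± 1.86) came last. In resting female “wannabes” *Ahr* (44.9 ± 17.2) came second, with libraries between 27.3 and 61.7 that overlapped those of *Nr1h2* and *Nr3c1* (26.6 ± 1.62), while *Rxra* (2.14 ± 0.43) and *Pparg* (0.055 ± 0.044) came last. In activated “wannabes” *Ahr* (30.6 ± 0.62) again came second, then *Rara* (19.2 ± 1.31), *Nr3c1* (15.7 ± 0.69), *Rxra* (9.94 ± 1.55), *Rarg* (8.53 ± 0.85), *Vdr* (6.27 ± 0.10) and *Pparg* (1.24 ± 0.50). Set side by side without a test, *Ahr* levels per length were between 3.13 and 11.5 in the male and between 27.3 and 61.7 in the female libraries, and *Pparg* levels were between 1.92 and 4.56 and between 0.024 and 1.60. The experiments differ in sex, age and treatment and were normalized separately, so these ranges do not compare any 1 of these factors.

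**Figure D4:**
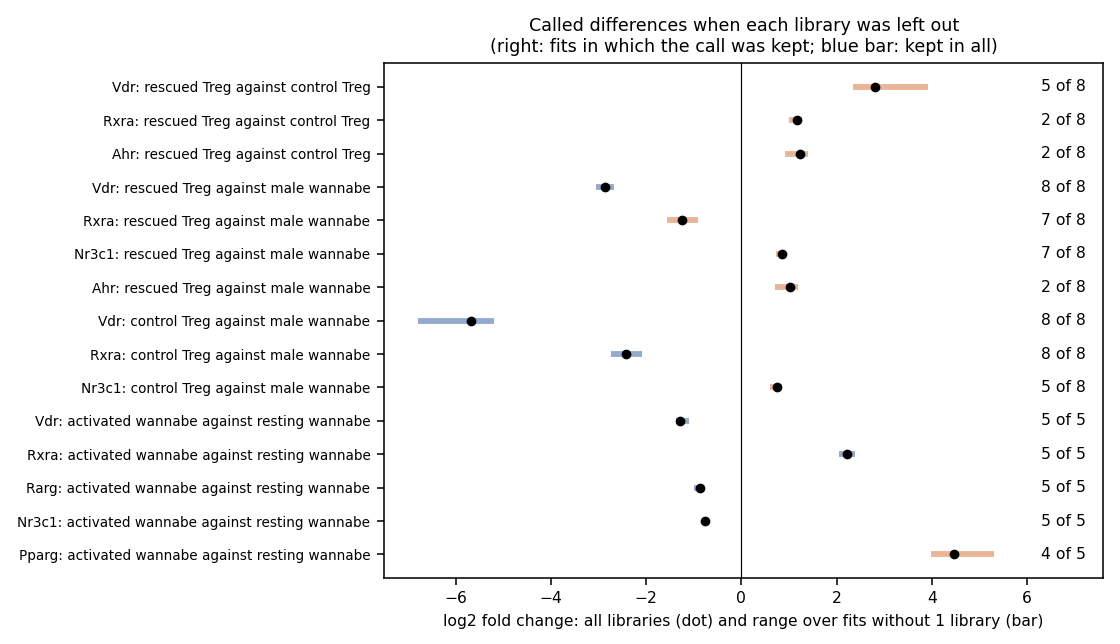
The 15 called differences of the 8 genes when each library was left out in turn. Dots are log2 differences with all libraries, bars run from the lowest to the highest value over the fits with 1 library fewer, and the numbers on the right count the fits in which the call was kept; of the calls, 7 were kept in every fit and every other setting tried.

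The genes with the pattern most like each called gene were found over the 13 libraries by the root mean square (RMS) difference of log2 CPM centred within each experiment, among 12972 genes tested in both. For *Vdr* the nearest were *Il21*, which encodes a cytokine of activated helper T cells (RMS difference 0.66), and *Lrrc75b* (1.06), beside a median of 2.09 over genes. For *Rxra* they were *Hist1h2bj*, a histone H2B gene (0.28), and *Cks1b*, a regulator of cyclin-dependent kinases (0.35, median 1.12). For *Pparg* they were *Icosl*, the ligand of the costimulatory receptor ICOS (0.54), and *Hc*, complement component C5 (0.56, median 1.39). For *Ahr* they were *Pmm1* (0.25) and *Ubl3* (0.26, median 0.67). For *Nr3c1* they were *Ivns1abp* and *Rcor3* (0.13 each, median 0.54) and for *Rarg* *Zbtb48* and *Tuft1* (0.16 each, median 0.56). These genes were picked for their likeness over the same libraries, so tests of their own differences are not given as results.

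The counts of called genes in the lists that follow stand beside the shares of all genes tested that passed in either direction, 2.3% between rescued and control Treg, 14.1% and 16.2% for rescued and control Treg against male “wannabes”, and 22.5% between activated and resting “wannabes” (1489 genes higher and 1469 lower). Of 7 vitamin D pathway genes, 3 were tested in male and 2 in female libraries, and none passed in any comparison. *Cyp24a1*, the enzyme that degrades active vitamin D and a direct target of its receptor, was not tested, with 0 to 4 reads in each of the 13 libraries, also where *Vdr* was highest. *Cyp27b1*, which makes the active hormone, had no read in 12 libraries and 6 reads in resting replicate 1. These target genes, like the AhR targets, retinoic acid hydroxylases and RXR genes named last in the paragraphs on their lists, were singled out after their values were seen.

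Of 20 retinoid pathway genes 13 were tested in the male libraries, and none passed between rescued and control Treg or between rescued Treg and “wannabes”. *Itga4*, the α4 integrin chain, was higher in control Treg than in “wannabes” (log2 1.11 ± 0.25 SE, adjusted p = 0.0136, edgeR), a call lost without “wannabe” replicate 2 (log2 0.71, adjusted p = 0.0753). Of 9 tested in the female libraries 1 was higher and 4 were lower in activated cells. *Tgm2*, transglutaminase 2 and a known retinoic acid target, had normalized counts of 38.9, 56.1 and 89.4 in resting and 661 and 988 in activated libraries (log2 3.74 ± 0.35, adjusted p = 0.00117, edgeR). *Itga4* was at log2 -1.60 ± 0.08 (adjusted p = 0.000249) and *Dhrs3*, a retinaldehyde reductase, at -2.10 ± 0.21 (adjusted p = 0.00151, edgeR). *Rbp4*, a retinol carrier, had 7, 11 and 10 reads in resting and none in activated libraries, at least 6.79-fold lower against a floor of 3 counts over the group, with an exact lower 95% limit of 5.17-fold for counting error (adjusted p = 0.0243, edgeR). That call was lost without either activated library (adjusted p = 0.125 and 0.131, edgeR), and without resting replicate 2 or 3 the gene failed the filter. The retinoic acid hydroxylases *Cyp26a1* and *Cyp26b1* had at most 12 reads in any library.

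Of 13 glucocorticoid pathway genes, all tested in both experiments, none passed between rescued and control Treg. Against male “wannabes” control Treg had 3 higher and 2 lower, with *Sgk1*, a kinase, at log2 -1.93 ± 0.27 SE (adjusted p = 0.00138) and *Anxa1*, annexin A1, at -3.49 ± 0.52 (adjusted p = 0.00187, edgeR). Rescued Treg had 3 higher and 1 lower, with *Fkbp4*, a cochaperone of the receptor, at 1.5 ± 0.25 (adjusted p = 0.00232) and *Dusp1*, a phosphatase, at 2.73 ± 0.50 (adjusted p = 0.00427, edgeR). Leaving out 1 library moved *Anxa1* to -2.55 without “wannabe” replicate 1 and to -4.10 without replicate 2, and *Dusp1* to 1.96 without rescued replicate 1 (adjusted p = 0.0110, 0.00112 and 0.00227, edgeR). In activated “wannabes”, in which *Nr3c1* was lower, 2 were higher and 3 lower. *Tsc22d3*, which encodes the glucocorticoid-induced leucine zipper, fell from 27089, 25431 and 32115 to 9340 and 11347 normalized counts (log2 -1.45 ± 0.14, adjusted p = 0.00119), and *Fkbp4* was at -0.79 ± 0.12 (adjusted p = 0.00720, edgeR). *Fkbp5*, a target that dampens the receptor, was higher (1.67 ± 0.36, adjusted p = 0.0215), as was *Anxa1* (2.20 ± 0.44, adjusted p = 0.0171, edgeR). The calls of *Fkbp4*, *Fkbp5* and *Anxa1* in the female libraries were lost without either activated library (adjusted p up to 0.0779, 0.150 and 0.117, edgeR). The 9 genes of handling stress, which include targets of several signals, summed to 4467 to 4780 CPM in resting and 2323 to 2849 CPM in activated libraries, and to 742.2 to 1062 CPM in male “wannabe”, 1202 to 1871 in control and 1195 to 2108 in rescued Treg libraries. Against male “wannabes” 5 of these 9 genes passed as higher in control and 3 in rescued Treg, and none as lower. Their part in these differences was not tested.

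Of 12 PPAR pathway genes none passed between rescued and control Treg. *Fabp5*, a fatty acid carrier, was lower than in “wannabes” in control (log2 -1.53 ± 0.25 SE, adjusted p = 0.00294) and rescued Treg (-1.29 ± 0.25, adjusted p = 0.00607, edgeR). Among the females 9 were tested, and 2 fell in the activated cells, in which *Pparg* was higher. *Plin2*, which coats lipid droplets, was 2297, 2738 and 2611 in resting and 368 and 361 in activated libraries (log2 -2.81 ± 0.12, adjusted p = 0.000249, edgeR). *Cd36*, a fatty acid transporter, had 121, 132 and 74 reads against 0 and 6, and was 39.6-fold higher in resting cells with an exact 95% interval of 18 to 109 for counting error only (fitted log2 difference -5.25, adjusted p = 0.00792, edgeR). Without activated replicate 1, the library with no read, the fitted difference was -4.27 (adjusted p = 0.0304, edgeR), and without activated replicate 2 no activated read was left (adjusted p = 0.0160, edgeR).

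Of 14 LXR pathway genes 11 were tested in the male libraries, and *Abca1*, the cholesterol exporter, was the 1 that passed between rescued and control Treg. Its normalized counts were 779, 1301 and 1475 in control, 3940, 3231 and 3104 in rescued Treg, and 1771 and 2279 in male “wannabe” libraries (rescued against control log2 1.53 ± 0.25 SE, adjusted p = 0.0108, edgeR). The rescued libraries were above all others, and the call was kept whichever library was left out. Against male “wannabes” 2 were higher and 1 lower in each Treg population. *Scd2*, a fatty acid desaturase, was lower than in “wannabes” in control (log2 -1.38 ± 0.24, adjusted p = 0.00376) and rescued Treg (-1.11 ± 0.24, adjusted p = 0.0103), and *Smpdl3a* was higher (0.56 ± 0.16 and 0.70 ± 0.16, adjusted p = 0.0355 and 0.0146, edgeR). The *Smpdl3a* call for control Treg was lost when any control library (adjusted p up to 0.0964, edgeR) or “wannabe” library was left out, and that for rescued Treg without “wannabe” replicate 2 (log2 0.64). Both calls were lost in fits of just the 2 populations (adjusted p = 0.0563 for control and 0.0691 for rescued Treg, edgeR). That for control Treg was also lost with a replicate block (adjusted p = 0.0536, edgeR). In the female libraries 2 of 10 were lower in activated cells, *Smpdl3a* (-0.93 ± 0.15, adjusted p = 0.00776) and *Abca1* (-1.93 ± 0.41, adjusted p = 0.0199, edgeR), both calls lost without either activated library (adjusted p up to 0.0797 and 0.144).

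Of 15 AhR pathway genes 9 were tested in the male libraries, and *Arnt2*, a paralogue of the AhR partner ARNT, was the 1 that passed between rescued and control Treg. Its normalized counts were 150, 70.2 and 176 in control, 967, 756 and 1281 in rescued Treg and 377 and 1073 in male “wannabe” libraries (log2 2.92 ± 0.46 SE, adjusted p = 0.0102, edgeR). That call was lost without control replicate 1 (adjusted p = 0.0519, edgeR). Against “wannabes” control Treg had 2 higher and 1 lower and rescued Treg 2 higher. *Arnt2* was at log2 -2.45 ± 0.48 in control Treg (adjusted p = 0.00657), and *Tiparp*, an AhR-induced enzyme that restrains the receptor, was higher in control (1.57 ± 0.40, adjusted p = 0.0227) and rescued Treg (2.37 ± 0.42, adjusted p = 0.00350, edgeR). *Ptges3*, the p23 cochaperone of AhR, was higher in rescued Treg than in “wannabes” (1.70 ± 0.39, adjusted p = 0.0151, edgeR). Without “wannabe” replicate 2 the calls of *Arnt2* and *Tiparp* for control Treg (log2 -1.56 and 0.99) and of *Ptges3* (log2 1.16) were lost. That of *Tiparp* for control Treg was also lost without control replicate 2 or 3 (adjusted p = 0.0547 and 0.0654, edgeR). It was lost as well in a fit of control Treg and “wannabes” alone (log2 1.53, adjusted p = 0.0609, edgeR). Without “wannabe” replicate 1 *Tiparp* was at 2.44 for control and 3.24 for rescued Treg and *Ptges3* at 2.45 for rescued Treg (adjusted p = 0.00474, 0.00144 and 0.00472, edgeR). In the female libraries 3 of 10 were lower in activated cells, all of them chaperones, *Hsp90ab1* (-0.89 ± 0.12, adjusted p = 0.00387), *Ptges3* (-0.54 ± 0.08, adjusted p = 0.00566) and *Hsp90aa1* (-0.55 ± 0.09, adjusted p = 0.00838, edgeR). The calls of *Ptges3* and *Hsp90aa1* were lost without either activated library (adjusted p up to 0.0641 and 0.0853) and that of *Hsp90ab1* without activated replicate 1 (adjusted p = 0.0516, edgeR). Of the 9 genes of handling stress, which include *Dnajb1* and *Hspa1a* of the heat shock response, 7 passed as lower in the same activated libraries, and their part in these 3 differences was not tested. *Cyp1a1* and *Cyp1b1*, the classical AhR targets, had at most 1 read in any library, and *Ahrr*, the AhR repressor, had 102, 49 and 38 reads in resting, 14 and 0 in activated and at most 34 in male libraries.

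**Figure D5:**
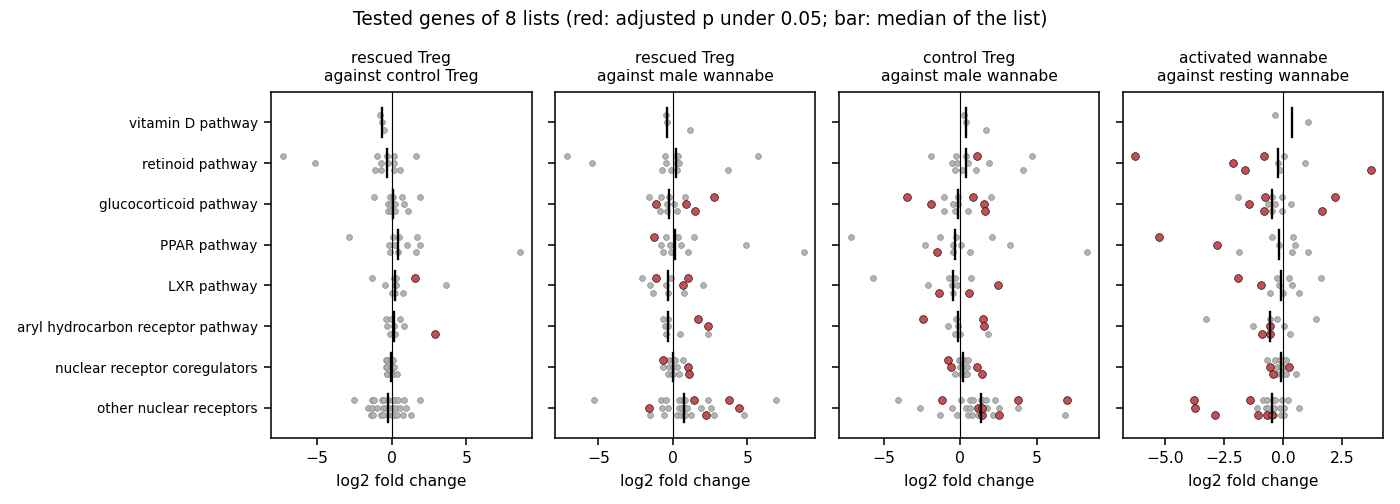
Log2 differences of the tested genes of the 8 lists in the 4 comparisons. Each point is a gene, red points passed at an adjusted p under 0.05 (edgeR), and black bars are list medians; between rescued and control Treg the 2 red points are *Arnt2* (2.92) and *Abca1* (1.53).

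Of 15 coregulators none passed between rescued and control Treg. Against male “wannabes” control Treg had 2 higher and 2 lower and rescued Treg 2 higher and 1 lower. *Tbl1x*, part of the NCoR complex, and *Nrip1*, a corepressor, were higher than in “wannabes” in control (log2 1.1 ± 0.18 and 1.38 ± 0.21 SE, adjusted p = 0.00267 and 0.00194) and rescued Treg (1.09 ± 0.18 and 0.98 ± 0.21, adjusted p = 0.00231 and 0.00905, edgeR). *Hdac3*, a histone deacetylase named here after its values were seen, was lower in control (-0.61 ± 0.17, adjusted p = 0.0340) and rescued Treg (-0.68 ± 0.17, adjusted p = 0.0213, edgeR). In activated “wannabes” *Gps2* (-0.54 ± 0.08, adjusted p = 0.00643) and *Crebbp* (-0.42 ± 0.10, adjusted p = 0.0288) were lower and *Hdac3* (0.26 ± 0.07, adjusted p = 0.0414, edgeR) was higher. When a library was left out, the *Crebbp* and *Hdac3* calls were kept only without resting replicate 2, and that of *Gps2* was lost without either activated library (log2 -0.50 without replicate 1 and -0.59 without replicate 2). With all libraries, the *Hdac3* call was lost without the filter and with a replicate block (adjusted p = 0.0582 and 0.128, edgeR). That of *Crebbp* was lost with the block (adjusted p = 0.0604, edgeR).

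Of 42 other nuclear receptors 31 were tested in male and 23 in female libraries, and none passed between rescued and control Treg. Control Treg had 6 higher and 1 lower than male “wannabes”. The smallest adjusted p was that of *Nr3c2*, the mineralocorticoid receptor, with 129, 117 and 194 reads in control Treg and 1 read in each “wannabe” library, a ratio of 142 with an exact 95% interval of 39.1 to 1180 (adjusted p = 0.00333, edgeR). *Rora*, which encodes RORα, was higher than in “wannabes” in control (log2 1.14 ± 0.20 SE, adjusted p = 0.00375) and rescued Treg (1.39 ± 0.20, adjusted p = 0.00104), and *Nr1d2*, which encodes REV-ERBβ, was higher in rescued Treg (2.25 ± 0.37, adjusted p = 0.00233, edgeR). Rescued Treg had 4 higher and 1 lower. In activated “wannabes” 7 of 23 passed, all lower, beside 22.5% of all genes. *Nr1d1*, which encodes REV-ERBα, was at log2 -3.74 ± 0.29 (adjusted p = 0.000677), then *Thra*, a thyroid hormone receptor, at -2.88 ± 0.25 (adjusted p = 0.000898) and *Nr1d2* at -1.42 ± 0.16 (adjusted p = 0.00200, edgeR), and these 3 calls were kept whichever library was left out. *Rxrb*, the other RXR gene with reads in every library, had 3152, 2804 and 3479 normalized counts in resting and 2912 and 2940 in activated libraries, and *Rxrg* had at most 9 reads in any library.

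Between rescued and control Treg the median log2 difference was -0.69 for the 3 vitamin D genes and between -0.30 and 0.43 for the other 7 lists, beside -0.03 over all genes. Between activated and resting “wannabes” it was between -0.54 for the AhR list and 0.36 for the 2 vitamin D genes, beside -0.01 over all genes. In bulk samples fewer cells with a transcript and less of it per cell cannot be told apart, for the 8 receptors and for these lists.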

How the data were processed

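The data are 13 bulk RNA-seq libraries, made with a low-input full-length cDNA kit and read paired-end. The authors aligned reads with STAR 2.7.3a to GRCm38, applied a local realignment and made gene counts in R. The deposited values are raw counts, and the gene annotation and strand setting are not given in the sources used here. Groups come from the labels.

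Of 24421 entries in each table, 4 without a gene name were left out (0.00579% of male and 0.00638% of female counts). Tests used edgeR 4.0.16 in R 4.3.3: TMM normalization, filterByExpr, and the quasi-likelihood F test, with p-values adjusted by Benjamini-Hochberg over the genes tested and a call where the adjusted p was under 0.05. A first fit held the 8 male libraries, another the 5 female ones, and a joint fit of all 13 gave the difference of changes. The biological coefficient of variation was 0.51 (male) and 0.171 (female). Normalized counts are scaled to mean effective libraries of 32805941 (male) and 29681452 (female) counts, and log2 CPM used a prior count of 2. Exact intervals are conditional binomial ones and, like the floor of 3 counts, cover counting error only, since the reads carry no molecular identifiers. The methods call the male libraries biological replicates and give the female ones as 3 resting and 2 activated mice, and p-values measure the spread between these libraries. Exon lengths and positions come from GENCODE M21, and promoter windows from RefSeq. Tests were two-sided. Simulated data were used to try the tests of rescued against control Treg, of activated against resting “wannabes” and of the difference of changes, and not those against male “wannabes”.

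The 8 genes, the gene lists and the tests were chosen with earlier results of these data known. From each list the text names called genes, up to 4 with the smallest adjusted p in the comparisons of rescued with control Treg and of activated with resting “wannabes” and up to 2 in each of the others, and for each called receptor gene the 2 genes of nearest pattern. Some called genes of the lists are not reported here. Alternatives were DESeq2 1.42.0, its size factors in edgeR, leaving out the filter, a replicate block, fitting just the 2 populations at hand, and leaving out each library.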

Additional observations from a re-analysis of the deposited data

Results flagged for a closer look

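The change from control to rescued Treg and the change from resting to activated “wannabe” differed for 2 of the 8 genes, by a test of the difference itself over all 13 libraries (edgeR's quasi-likelihood test). For *Vdr* the difference was 4.12 on the log2 scale (adjusted p = 0.0136): all 3 rescued libraries were above the controls and both activated libraries were below the resting ones. For *Pparg* it was -4.56 (adjusted p = 0.00628): rescued and control libraries overlapped, and both activated libraries were above the resting ones, which held 3, 9 and 2 reads. No group holds 4 or more libraries, so single libraries were not tested as outliers.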

How the results depend on the processing

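Over the alternatives that kept all libraries, 377 of the 397 tests of named genes kept their direction and their side of the threshold, 7 were gained, 12 were lost and 1 reversed. Over the fits with 1 library fewer 543 did, 11 were gained, 69 were lost and 21 reversed. Where a library of a pair was left out, the lone library left was assumed to vary like the other groups. The number of the 8 genes called, 3 between rescued and control Treg, was 0 to 3 with 1 library fewer. Between rescued Treg and male “wannabes”, 4 became 1 to 5. For the difference of changes, 2 became 5 with DESeq2 and 1 to 4 with 1 library fewer. Of the 71 calls of list genes in the 4 comparisons, the 47 that the naming rule picked by smallest adjusted p were refitted, and 28 of these were kept in every fit.

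The reversals were in comparisons where the gene was not called. With 1 library fewer, log2 differences ran for *Rara* from -0.11 to 0.056 (rescued against control), from -0.059 to 0.10 (activated against resting) and from -0.13 to 0.074 (difference of changes). For *Nr1h2* they ran from -0.12 to 0.043 (rescued against control), from -0.71 to 0.035 (control against “wannabe”), from -0.072 to 0.044 (activated against resting) and from -0.086 to 0.10 (difference of changes). For *Pparg* they ran from -0.72 to 0.56 (rescued against “wannabe”) and from -0.62 to 0.67 (control against “wannabe”), and for *Rarg* from -0.41 to 0.50 (control against “wannabe”). With the replicate block *Rara* was at -0.00249 between activated and resting. Whether the numbers pair the libraries could not be decided. Same-numbered libraries' deviations correlated between -0.0273 and 0.0845 in the male and -0.0292 and -0.0171 in the female experiment. Those with different numbers correlated between -0.129 and 0.0741 in the male and -0.0103 and 0.0292 in the female experiment. Within the male “wannabe” and the activated group the deviations mirror each other, so correlations with these libraries, which include all female ones, say little about pairing. With the replicate block 3, 3, 3 and 6 of the 8 genes were called in the 4 comparisons, where 426, 1968, 2304 and 2045 of all genes were, with *Ahr* gained between activated and resting (log2 -0.80, adjusted p = 0.00958, edgeR) and lost between rescued Treg and “wannabes” (adjusted p = 0.0739), and gained for the difference of changes (adjusted p = 0.0301).

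Over all genes, 343 calls between rescued and control Treg became 1096 with DESeq2, 612 without the filter, 580 with only the 2 populations and 114 to 598 with 1 library fewer. For the difference of changes, 233 became 770 with DESeq2 and 44 to 430 with 1 library fewer. Control against “wannabe” fell from 2416 to as few as 1549, and activated against resting from 2958 to 751 and 797 without an activated library.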
